A study of Mus musculus with 2 samples.

Results

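The genes described here are 10 enzymes of sphingolipid metabolism, taken by symbol from a table of 50608 rows, in which all 10 had a row. They are the acid and neutral sphingomyelinases Smpd1 and Smpd2, their relatives Smpdl3a and Smpdl3b, the sphingomyelin synthases Sgms1 and Sgms2, the acid ceramidase Asah1, the serine palmitoyltransferase subunits Sptlc1 and Sptlc2, and the glucosylceramide synthase Ugcg. The study sequenced total RNA of peritoneal macrophages, phagocytes of the abdominal cavity. Per the labels, both groups came from C57BL6J animals at stage E15.5, males and females pooled, with 1 library from cells treated with GW3965 and 1 from cells given DMSO. GW3965 is a synthetic compound that activates the liver X receptors (LXRs), which are nuclear receptors for oxidised forms of cholesterol, and DMSO is its solvent. Neither its dose, nor the length of treatment, nor the number of animals pooled is stated in the labels. The column read as GW3965 shares only the opening letters of its name with that sample's description, so every statement on GW3965 rests on that match. The comparison asks what LXR activation does to transcript levels in macrophages.

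Sphingolipids are membrane lipids built on a long-chain base. Serine palmitoyltransferase makes the base, ceramide synthases turn it into ceramide, and ceramide is then passed to sphingomyelin by the sphingomyelin synthases or to glycosphingolipids by glucosylceramide synthase. Sphingomyelinases and ceramidases take these lipids apart again, largely in the lysosome in macrophages. Sphingomyelin packs with cholesterol in the plasma membrane and so limits how much cholesterol is free to leave the cell, which is the step that LXR targets such as Abca1 serve.

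With 1 library in each group there was no replicate error, no test and no p-value, and each difference below compares these libraries only. Values are FPKM, the fragments of a gene divided by its length and by the depth of the library. A gene was called measured at a mean of at least 1 FPKM over both libraries, and higher or lower at a 1.5-fold difference after adding 1 FPKM, which makes the change of low genes look smaller. The depth, recovered from the steps of the values, was about 75287000 reads in the GW3965 library and 101866000 in the DMSO library. The ratio of each member is given with a 95% interval that covers counting error only, and the ratios of other genes are given without one. The measured rows had a median log2 ratio of 0.24, and 93.6% of them stood higher in the GW3965 library, so values are also given centred on that median. Of 8 known LXR targets 7 were higher on both scales. Among them Abca1, the exporter of cholesterol, had the highest ratio, with 261 FPKM in GW3965 and 19.9 FPKM in DMSO. The remaining target, Nr1h3, had 10.1 FPKM in GW3965 and 7.8 FPKM in DMSO, a centred log2 ratio of 0.09. The targets were listed with earlier results of these data known.

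After centring, the measured sphingolipid enzymes all lay within 1.5-fold of the median row. The quartiles of all measured rows were centred log2 ratios of -0.1 and 0.1, and by definition leave as many rows outside as between them. Sptlc1, Sptlc2 and Ugcg lay between them and the other measured members outside, which does not set so few genes apart from other rows. Of the 10 members 9 were measured, and 1 of the 9, Sgms2, was higher by 1.5-fold in the GW3965 library, against 3.46% of all 11889 measured rows. No member was lower, against 0.0757% of rows. After centring, 0 of 9 were higher, against 1.38% of rows, and 0 of 9 were lower, against 0.336% of rows. At a 2-fold limit without centring, 0 of 9 were higher, against 0.984% of rows, and 0 of 9 were lower, as were 0 of all rows. The log2 ratios of the 9 ran from 0.07 to 0.69 with a median of 0.31, or 0.06 after centring. Over all 10 members, Smpdl3b included, the median was 0.26, or 0.02 after centring.

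**Figure D1:**
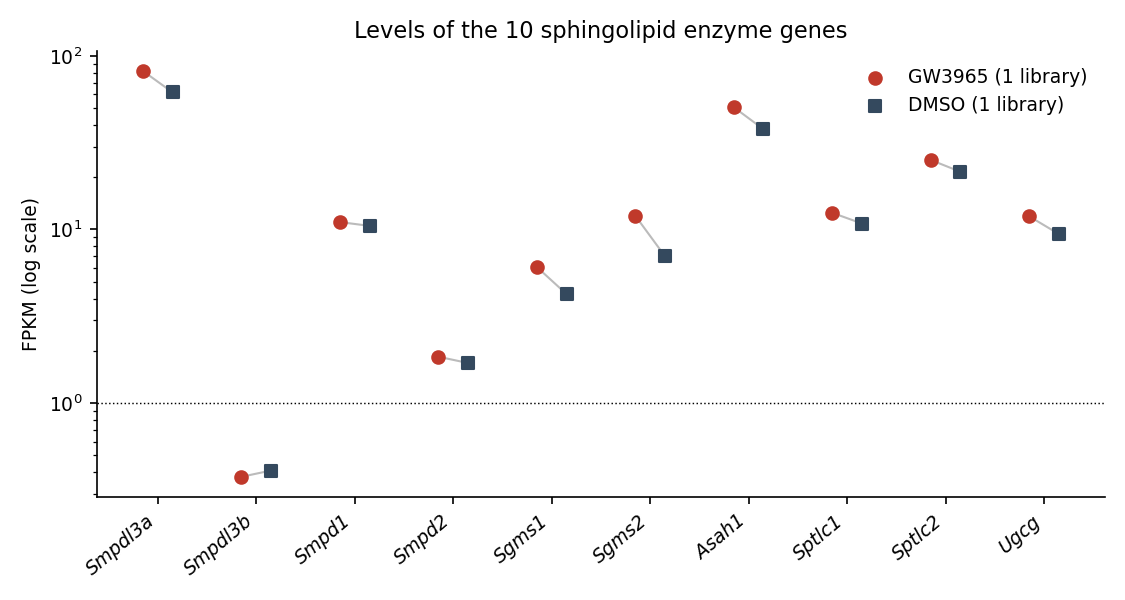
Level of each of the 10 genes in FPKM on a log axis, with the GW3965 library as red circles and the DMSO library as dark squares joined by a grey line, and the 1 FPKM filter dotted. Smpdl3a is at the top with 81.8 FPKM in GW3965 and 61.6 FPKM in DMSO, and Smpdl3b is the only gene under the filter.

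**Figure D2:**
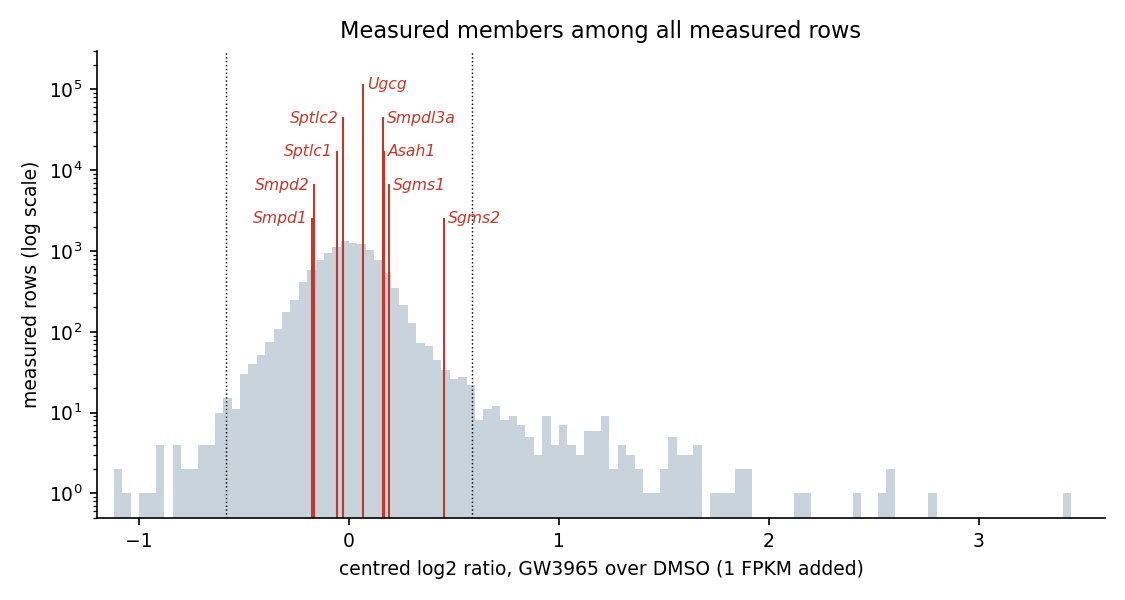
Histogram of the centred log2 ratio, GW3965 over DMSO, of the 11889 measured rows on a log count axis, with red lines for the 9 measured members and dotted lines at the 1.5-fold limits. Sgms2, at 0.45, is the member farthest from the centre, and all 9 lie inside the limits.

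The sphingomyelin synthases had the highest ratios of the 10 genes. Sgms2, which makes sphingomyelin at the plasma membrane and in the Golgi, lies at chr3:131318985-131491411 on the minus strand of GRCm38. It had 12.0 FPKM in the GW3965 library and 7.01 FPKM in the DMSO library, a ratio of 1.71 (1.64 to 1.78). Its log2 ratio of 0.69, or 0.45 after centring, lay above that of 97.8% of measured rows. Sgms1, the synthase of the Golgi, lies at chr19:32122727-32389714 on the minus strand. It had 6.07 FPKM in GW3965 and 4.24 FPKM in DMSO, a ratio of 1.43 (1.37 to 1.49), with a centred log2 ratio of 0.19. Together the synthases came to 18.0 FPKM in GW3965 and 11.2 FPKM in DMSO. Sgms2 was the more abundant of the pair in both libraries, at 1.97 times Sgms1 in GW3965 and 1.65 times in DMSO. That within-library ratio does not depend on how the libraries are scaled, and its change of 1.19 (1.13 to 1.26) was larger than counting error.

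Sequence upstream of the synthases is shown because these genes had the highest ratios. RefSeq windows from 250 bases before to 50 after an annotated start (GRCm38.p6) were at hand for 8 of the 10 members, 16 windows in all, and Smpdl3a and Asah1 had none. They were searched on both strands for the LXR direct repeat (AGGTCA, any 4 bases, then AGGTCA again) with up to 3 mismatches, the sterol response element TCACNCCAC bound by SREBP factors, and the CLEAR element TCACGTG bound by TFEB, a regulator of lysosomal genes. No member window held the direct repeat without mismatches. Matches within the limit of 3 were in windows 2 and 3 of the 4 Sgms1 windows and in no other of the 16 member windows. In window 2 of the 4 Sgms1 windows a match with 2 mismatches, on the strand opposite the gene, overlapped one with 3. Of all 32851 windows in the table, 3.02% held a match with at most 2 mismatches and 21.9% with at most 3. With so few member windows these matches do not set Sgms1 apart. The stretch below, at chr19:32388124-32388149, runs along the minus strand and has the closer match in capitals. The 250 bases before start 3 of Sgms1, at chr19:32349317-32349566 on the minus strand, have a match with 3 mismatches in capitals. None of the 6 Sgms2 windows held a match to the direct repeat within 3 mismatches. The 250 bases before start 5 of Sgms2, at chr3:131489043-131489292 on the minus strand, have a CLEAR element in capitals, read on the opposite strand. A CLEAR element was also in the Smpd2 window, and 3.77% of all windows held one. The sterol response element was in no member's window and in 1.24% of all windows.
Sgms1 start 2, direct repeat: gggccaggccTGACCTCGGTTGACGG
Sgms1 start 3, upstream: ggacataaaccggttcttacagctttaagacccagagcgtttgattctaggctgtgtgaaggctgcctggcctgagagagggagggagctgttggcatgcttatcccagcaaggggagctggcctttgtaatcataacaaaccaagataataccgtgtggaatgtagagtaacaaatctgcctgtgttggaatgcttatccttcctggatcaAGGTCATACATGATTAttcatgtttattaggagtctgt
Sgms2 start 5, upstream: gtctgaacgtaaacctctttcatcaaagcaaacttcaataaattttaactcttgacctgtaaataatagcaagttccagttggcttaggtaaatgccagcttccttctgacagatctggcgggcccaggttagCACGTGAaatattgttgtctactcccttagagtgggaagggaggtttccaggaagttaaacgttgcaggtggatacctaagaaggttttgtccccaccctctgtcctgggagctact
These matches are descriptions of letters, and no binding was measured in these libraries.

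The sphingomyelinases themselves had ratios near 1. Smpd1, the acid sphingomyelinase of the lysosome, lies at chr7:105554360-105558389 on the plus strand. It had 11.0 FPKM in GW3965 and 10.5 FPKM in DMSO, a ratio of 1.05 (1.0 to 1.11). Its centred log2 ratio was -0.18, and 12.9% of measured rows lay below it. Smpd2, a neutral sphingomyelinase, lies at chr10:41485642-41490369 on the minus strand. It had 1.85 FPKM in GW3965 and 1.70 FPKM in DMSO, a ratio of 1.09 (0.983 to 1.2), and its centred log2 ratio was -0.17. Its exons overlap those of Mical1 on the opposite strand over 905 bases, 20.3% of its exon length, and no source used here states that the counting used strand, so reads there cannot be told apart. Mical1, which encodes an actin-oxidising enzyme, had 15.2 FPKM in GW3965 and 15.3 FPKM in DMSO. Both sphingomyelinases stood above DMSO as deposited and below the median row after centring, so their direction depends on the scaling.

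Set against each other within a library, the synthases and the acid sphingomyelinase did not change alike. Sgms2 was at 1.08 times the level of Smpd1 in the GW3965 library and at 0.668 times in the DMSO library, a change of 1.62 (1.42 to 1.85). Sgms1 was at 0.55 times Smpd1 in GW3965 and at 0.404 times in DMSO, a change of 1.36 (1.19 to 1.55). Between the sphingomyelinases, Smpd1 was at 5.97 times Smpd2 in GW3965 and 6.17 times in DMSO, and that change of 0.967 (0.778 to 1.2) was within counting error. These pairs were chosen after the values were seen. The other changes in the ratio of 2 genes given here were not planned either. Smpd1 had the lowest ratio of the measured members, so any other measured member set against it gives a change above 1.

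The sphingomyelinase-like genes lay at the extremes of level. Smpdl3a, at chr10:57794335-57811830 on the plus strand, encodes a phosphodiesterase related to the acid sphingomyelinase that cleaves nucleotides rather than sphingomyelin, and its human counterpart is known to respond to LXR agonists in macrophages. It had the highest level of the 10 genes, with 81.8 FPKM in GW3965 and 61.6 FPKM in DMSO, above 97.6% of measured rows in GW3965 and 97.2% in DMSO. Its ratio was 1.33 (1.29 to 1.36) and its log2 ratio 0.40, or 0.16 after centring, below the 1.5-fold limit on both scales. It made up 86.1% of the summed FPKM of the 4 sphingomyelinases and relatives in GW3965 and 83.0% in DMSO. Smpdl3a stood at 7.42 times Smpd1 in GW3965 and 5.88 times in DMSO, a change of 1.26 (1.11 to 1.43). That comparison was not planned, and Smpd1 had the lowest ratio of the measured members.

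Smpdl3b, a relative anchored to the outer face of the membrane that is known to dampen Toll-like receptor signalling in mouse macrophages, was the only member under the filter. It lies at chr4:132732966-132757252 on the minus strand and had 0.376 FPKM in GW3965 and 0.408 FPKM in DMSO. It was the only member that was lower in GW3965, with a ratio of 0.92, but the interval of 0.632 to 1.33 includes 1. By the length nearest the annotation, 51 reads in GW3965 and 75 in DMSO stand behind these values. By the shortest length that gives whole reads these are 17 in GW3965 and 25 in DMSO, and the interval is 0.466 to 1.77. A difference was not detectable at this depth. Other rows of similar level tended to be higher in GW3965. The 7057 rows with a mean of 0.3 to 1 FPKM had a median ratio of 1.35, with quartiles of 1.16 and 1.56.

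Asah1, the acid ceramidase that frees sphingosine in the lysosome, had nearly the same ratio as Smpdl3a. It lies at chr8:41340197-41374773 on the minus strand and had 50.5 FPKM in GW3965 and 37.8 FPKM in DMSO, a ratio of 1.34 (1.31 to 1.37), while its centred log2 ratio was 0.17. It was the second most abundant member in both libraries. Smpdl3a stood at 1.62 times Asah1 in GW3965 and 1.63 times in DMSO, a change of 0.993 (0.954 to 1.03) that was within counting error. Against Smpd1, another lysosomal hydrolase, Asah1 stood at 4.58 times in GW3965 and 3.6 times in DMSO, a change of 1.27 (1.12 to 1.45). This comparison with the measured member of lowest ratio was not planned.

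The subunits of serine palmitoyltransferase, the first enzyme of the pathway, stood in nearly the same ratio to each other in both libraries. Sptlc2, which carries the cofactor-binding site, lies at chr12:87305058-87388355 on the minus strand and had 25.1 FPKM in GW3965 and 21.5 FPKM in DMSO, a ratio of 1.17 (1.14 to 1.2). Its partner Sptlc1 lies at chr13:53332748-53377397 on the minus strand and had 12.5 FPKM in GW3965 and 10.8 FPKM in DMSO, a ratio of 1.15 (1.1 to 1.2). Sptlc2 was at 2.02 times Sptlc1 in GW3965 and 1.99 times in DMSO, a change of 1.02 (0.932 to 1.11) that was within counting error. After centring both lay just below the median row, at -0.03 for Sptlc2 and -0.06 for Sptlc1.

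Ugcg, which adds glucose to ceramide and so opens the glycosphingolipid branch, lay close to the median row. The gene is at chr4:59189257-59222833 on the plus strand. It had 11.9 FPKM in GW3965 and 9.40 FPKM in DMSO, a ratio of 1.26 (1.22 to 1.31), and its centred log2 ratio was 0.06. Sgms2, which also uses ceramide, stood at 1.01 times Ugcg in GW3965 and 0.745 times in DMSO, a change of 1.35 (1.27 to 1.44). This comparison with the member of highest ratio was not planned.

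The order of levels was the same at both ends in the libraries and differed in the middle. Smpdl3a, Asah1, Sptlc2 and Sptlc1 were the first 4 in each, and Sgms1, Smpd2 and Smpdl3b the last 3. In GW3965 the genes between were Sgms2, Ugcg and Smpd1, in that order, and in DMSO they were Smpd1, Ugcg and Sgms2. In GW3965 each of Sptlc1, Sgms2, Ugcg and Smpd1 overlapped its neighbour in this order within counting error, with levels of 12.5, 12.0, 11.9 and 11.0 FPKM. In DMSO the neighbours Sptlc1 and Smpd1 and the neighbours Smpd1 and Ugcg did so, whereas Ugcg and Sgms2 did not. The counting intervals of Sgms2 were 11.6 to 12.3 FPKM in GW3965 and 6.80 to 7.22 FPKM in DMSO.

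The ratios of the measured members, taken without their intervals, were sorted against rows of like level into a higher, a middle and a lower group. The cuts were the quartiles of each level, which by definition leave as many rows outside as between them. The groups come from these cuts and do not set the members apart from other rows. The median ratio was slightly smaller at higher levels, being 1.28 at 1 to 3 FPKM, 1.23 at 3 to 10 FPKM, 1.23 at 10 to 30 FPKM and 1.21 at 30 to 100 FPKM. Sgms2 and Sgms1 were above the upper quartile of their level, which was 1.34 over 4404 rows, and Smpdl3a and Asah1 were above theirs, 1.30 over 611 rows. Sptlc1, Sptlc2 and Ugcg lay between the quartiles of 1.14 and 1.32 over 1869 rows. Smpd1 was below the same lower quartile of 1.14, and Smpd2 was below its own of 1.15 over 4797 rows. The counting intervals of Smpdl3a (1.29 to 1.36), Sptlc1 (1.1 to 1.2) and Smpd2 (0.983 to 1.2) span the quartile concerned, so their groups are not settled. With the smallest whole reads those of Smpd1 (0.928 to 1.19), Sptlc2 (1.13 to 1.21) and Ugcg (1.2 to 1.33) span one too. These groups describe 1 pair of libraries, and the bands were set after the values were seen.

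**Figure D3:**
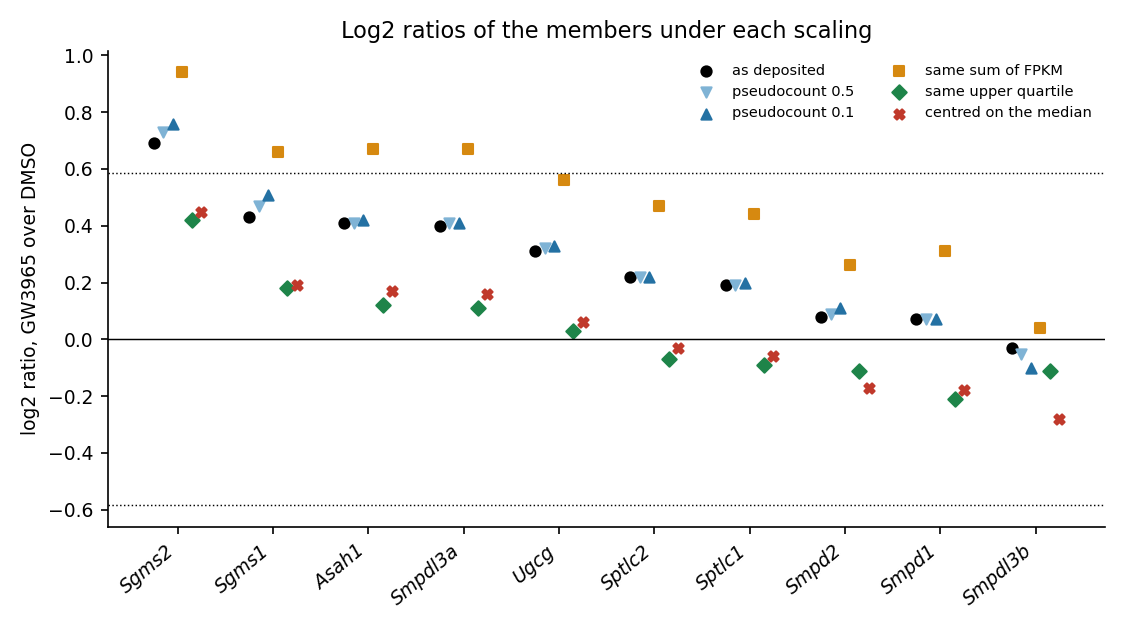
Log2 ratio, GW3965 over DMSO, of each member under the values as deposited, smaller pseudocounts and other scalings, with dotted lines at the 1.5-fold limits. Sgms2 stays the highest under each of them, from 0.42 to 0.94, while Smpd1, Smpd2, Sptlc1 and Sptlc2 lie above 0 as deposited and below 0 once centred or scaled to the same upper quartile.

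The rest of the pathway was described from 7 lists of 60 further genes, of which 59 had a row and 41 were measured. Of these 41, 1 was higher by 1.5-fold, against 3.46% of all measured rows, and 0 were lower, against 0.0757%, with a median log2 ratio of 0.24, the same as that of all measured rows. After centring 1 was higher, against 1.38% of all rows, and 1 was lower, against 0.336%. With so few calls these shares do not set the lists apart from other rows. Both genes were among the 4 measured genes of glycosphingolipid synthesis. B4galt6, which makes lactosylceramide from the product of Ugcg, had 13.1 FPKM in GW3965 and 6.58 FPKM in DMSO, a ratio of 1.99 and a centred log2 ratio of 0.65. Its paralogue B4galt5, which carries out the same step, had 31.2 FPKM in GW3965 and 29.2 FPKM in DMSO. B4galnt1, which makes the complex gangliosides, had 9.80 FPKM in GW3965 and 13.1 FPKM in DMSO, a ratio of 0.75 and a centred log2 ratio of -0.63. St3gal5, which makes the first ganglioside, had 6.54 FPKM in GW3965 and 4.85 FPKM in DMSO.

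None of the other 6 lists held a gene past the limit on either scale. In de novo ceramide synthesis, 10 of 15 were measured with a centred median of 0.08. Sptssa, a small subunit of serine palmitoyltransferase, had 42.0 FPKM in GW3965 and 28.8 FPKM in DMSO, the ceramide synthase Cers2 had 27.9 FPKM in GW3965 and 20.1 FPKM in DMSO, and Ormdl1, a regulator that restrains serine palmitoyltransferase, and the desaturase Degs1 had centred log2 ratios of 0.17 each. Glycosphingolipid breakdown, with 11 of 11 measured, had a centred median of -0.02. Its Psap, the precursor of the saposins that help lysosomal hydrolases, was the most abundant gene of these lists and was picked after its value was seen, with 4960 FPKM in GW3965 and 4370 FPKM in DMSO. In the same list Gm2a, an activator protein, had a centred log2 ratio of -0.24, Galc, the galactosylceramidase, 0.18, Glb1, a beta-galactosidase, -0.13, and Gla, an alpha-galactosidase, 0.11.

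Ceramide transfer and phosphorylation had 5 of 5 genes measured and a centred median of 0.06. Col4a3bp, which carries ceramide from the endoplasmic reticulum to the Golgi where Sgms1 acts, had 26.8 FPKM in GW3965 and 18.4 FPKM in DMSO, a ratio of 1.46 and a centred log2 ratio of 0.28. Gltp, a glycolipid transfer protein, had 77.4 FPKM in GW3965 and 77.9 FPKM in DMSO, while the ceramide kinase Cerk and the transfer protein gene Plekha8 had centred log2 ratios of 0.07 and 0.06. For sphingosine 1-phosphate, 6 of 12 were measured with a centred median of 0.05. The kinase Sphk2 had 11.1 FPKM in GW3965 and 11.0 FPKM in DMSO, the receptor S1pr1 had 4.34 FPKM in GW3965 and 2.84 FPKM in DMSO, and the phosphatase Sgpp1 and the lyase Sgpl1 had centred log2 ratios of 0.13 and 0.10.

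Of the other ceramidases 3 of 5 were measured, with a centred median of -0.09. Naaa, a lysosomal amidase related to Asah1, had 5.59 FPKM in GW3965 and 6.16 FPKM in DMSO, Acer3, an alkaline ceramidase, had 12.6 FPKM in GW3965 and 9.12 FPKM in DMSO, and Asah2, a neutral ceramidase, had a centred log2 ratio of -0.09. Of the other sphingomyelin genes 2 of 4 were measured. Samd8, which is related to the synthases and makes a ceramide phosphoethanolamine, had 36.4 FPKM in GW3965 and 31.3 FPKM in DMSO, more than either synthase, and Smpd4, a neutral sphingomyelinase, had 1.95 FPKM in GW3965 and 1.60 FPKM in DMSO.

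**Figure D4:**
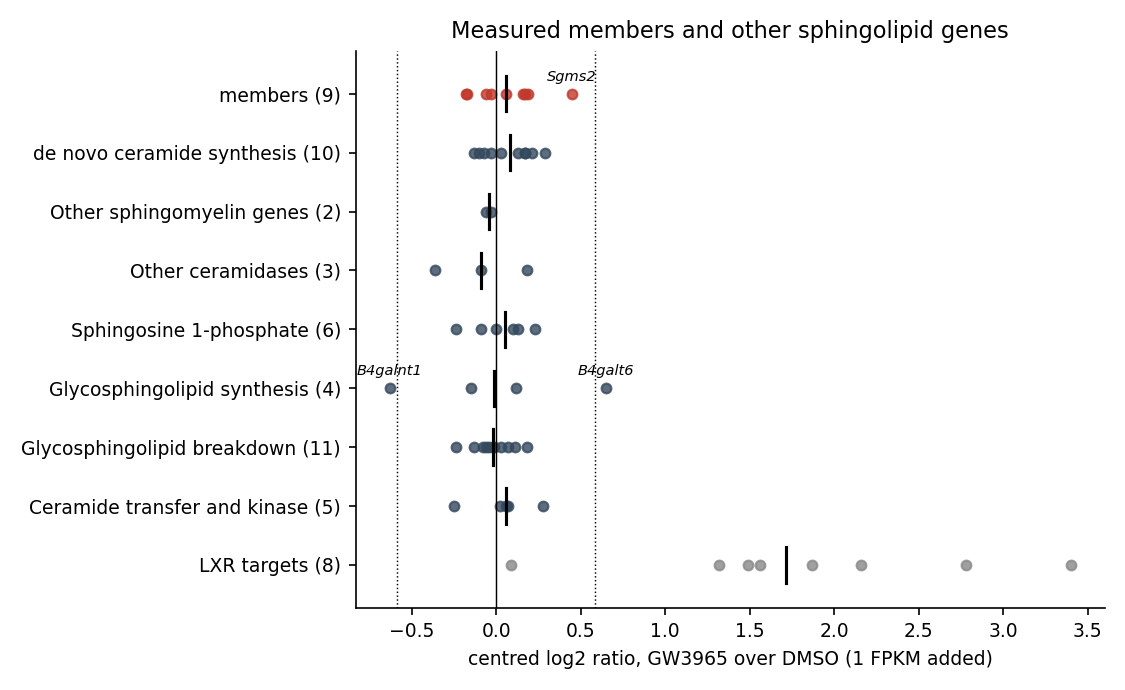
Centred log2 ratio, GW3965 over DMSO, of each measured gene by list, with the number measured in parentheses, black bars at the list medians and dotted lines at the 1.5-fold limits. The members and the sphingolipid lists gather around 0 with B4galt6 and B4galnt1 outside the limits, whereas 7 of the 8 LXR targets lie beyond 1.3.

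The cells were checked against markers. All 8 general macrophage genes were measured, from 15.2 to 4820 FPKM in GW3965 and from 12.7 to 4050 FPKM in DMSO, with none past the limit. The 3 markers of large peritoneal macrophages were below the filter, at 0.135 to 0.618 FPKM in GW3965 and 0.0715 to 0.607 FPKM in DMSO. Of 5 mesothelial and fibroblast markers 4 were measured, and 1 of the 4, Dcn, was higher by 1.5-fold as deposited and 0 after centring. Dcn had 11.6 FPKM in GW3965 and 6.91 FPKM in DMSO. Upk3b had 2.51 FPKM in GW3965 and 1.38 FPKM in DMSO, and Col3a1 had 7.07 FPKM in GW3965 and 5.08 FPKM in DMSO. Col1a1, the only measured one below the median row, had 1.75 FPKM in GW3965 and 1.61 FPKM in DMSO and a centred log2 ratio of -0.17. The centred median of the 4 was 0.24. The summed level of the 5 was 23.3 FPKM in GW3965 and 15.2 FPKM in DMSO, and their part in the ratios of Sgms2 and Sgms1 was not tested. The 4 B cell markers summed to 3.94 FPKM in GW3965 and 2.67 FPKM in DMSO, and the 3 neutrophil markers to 3.89 FPKM in GW3965 and 3.47 FPKM in DMSO. The T and NK cell, mast cell, dendritic cell and endothelial lists each summed to less than 1 FPKM in both libraries. In such bulk samples, fewer cells of a type and less RNA per cell cannot be told apart.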

How the data were processed

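RNA of peritoneal macrophages was measured in 2 libraries, 1 per group. The authors deposited 1 table of FPKM values holding a column for each library. STAR 2.3.0, HTSeq 0.5.4p3 and the build GRCm38 (mm10) appear in the submitters' processing notes, with no role or order. For the annotation, the strand setting and reads with several matches, the notes give no method. From these values the log2 of (GW3965 + 1)/(DMSO + 1) was computed.

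Reads behind each value were recovered from the FPKM steps. At 1 pair of depths, 99.1% of measured rows gave whole reads in both libraries for a whole-base length under 15000, against 15.1% of a sample of them when 1 depth was moved by 1%. The recovered length fixes reads only up to a whole multiple, so the multiple nearest the GENCODE M21 exon length less 99 bases was used. The smallest whole reads were used for ratios between genes and for intervals of levels. The 99 bases were the most frequent difference, in 25 of 1875 rows, against 20 rows for 105 bases. For Asah1, Ugcg, Smpd2 and Sptlc1 the lengths used, 4418, 7042, 5025 and 3666 bases, exceed the annotated 3390, 5212, 4468 and 3556. Their intervals of ratios may therefore be too narrow. With the smallest whole reads these are 1.3 to 1.38, 1.2 to 1.33, 0.911 to 1.3 and 1.06 to 1.25. Intervals of ratios are exact conditional (Clopper-Pearson) 95% intervals, those of levels are exact Poisson intervals, and those of a change in the ratio of 2 genes are exact conditional intervals of the odds ratio of their reads.

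The named genes are all members and, from each other sphingolipid list, up to 4 measured genes of largest absolute centred log2 ratio. Members, lists and rules were chosen with earlier results of these data known. Planned comparisons of protein sequence were not made. The depth and read recovery and the calls were tested on simulated data. The alternatives were smaller pseudocounts, other filters, centring, other scalings and a 2-fold limit. Software was scipy 1.17.1, numpy 2.4.6, matplotlib 3.10.9 and pandas 2.3.3 under Python 3.11.15.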

Additional observations from a re-analysis of the deposited data

How the results depend on the processing

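No paired analysis was possible because there was only 1 GW3965 and 1 DMSO library. The count of 1 measured member higher went to 0 when values were centred, scaled to the same upper quartile, held to a 2-fold limit, or centred without NONCODE, Gm and Rik rows (added after the data were seen), and to 4 with the same sum of FPKM. No alternative gave a lower member. The members' median log2 ratio of 0.31 was 0.33 with a pseudocount of 0.1, 0.32 with 0.5, 0.26 with no filter, 0.36 at a mean FPKM of at least 5, 0.06 centred, 0.56 with the same sum, 0.03 with the same upper quartile and 0.08 centred without those rows. Of the other sphingolipid genes, 1 was higher as deposited, 2 with a pseudocount of 0.1, 14 with the same sum and 0 at 2-fold. None was lower as deposited and 1 was lower centred, centred without those rows, or with the same upper quartile. Of all measured rows, 411 were higher and 9 lower. Under a pseudocount of 0.1 these counts were 1024 and 20, at a mean FPKM of at least 5 they were 224 and 5, centred 164 and 40, with the same sum 2637 and 1, with the same upper quartile 156 and 34, at 2-fold 117 and 0, without NONCODE, Gm and Rik rows 194 and 4, and centred without them 80 and 17. The lower count was 14 with a pseudocount of 0.5 and 17 with no filter. The cause was not tested. Sgms2 was past the limit under 6 of 10 alternatives, but some of these, such as the filters, leave its ratio unchanged. Among centring and the other scalings only the same sum of FPKM kept it past the limit, at a log2 ratio of 0.94. It was 0.45 centred, 0.42 with the same upper quartile and 0.46 centred without NONCODE, Gm and Rik rows. Of 100 values of single members, 38 moved beyond counting error. The filters, the 2-fold limit and the removal of rows without centring cannot change a member's ratio, so those values could not move. Under centring and the other scalings, every member but Smpdl3b moved each time. Smpd1, Smpd2, Sptlc1 and Sptlc2 were each below 0 under 3 of 10 alternatives, and Smpdl3b was above 0 under 1. With the smallest whole reads, also added after the data were seen, the intervals widened to 0.928 to 1.19 for Smpd1 and 0.911 to 1.3 for Smpd2. Depth limits Smpdl3b and Smpd2.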
